A study of Mus musculus with 12 samples.

Results

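The genes described here are 32 neighbours of Sirt2 on mouse chromosome 7, out of 23479 genes in the count tables. They were named from their place on the segment around Sirt2, a gene for an NAD-dependent protein deacetylase, and 22 of the 32 had enough reads to be tested. RNA was sequenced from CD4+ T cells of mouse spleen, which were enriched by removing other cell types, in 4 groups of 3 libraries. Wild-type C57BL/6J mice (WT) and Sirt2-/- mice (KO) each gave cells lysed directly after isolation (0 h) and cells cultured for 24 h over coated anti-CD3, an antibody that engages the T cell receptor, at 5 μg/ml (24 h). All 4 groups carry the label of a C57BL/6 background. The sources used here do not give how the Sirt2 allele was made, the strain of the stem cells behind it, the number of backcrosses or the age and sex of the mice. Nor do the labels say whether each library of a group stands for its own mouse, so p-values cover only the variation among these libraries, and that variation may be technical.

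Gene targeting is commonly done in embryonic stem cells, and when the mice are then crossed to another strain, the DNA next to the targeted gene is the slowest to be exchanged, because few crossovers fall close to a selected allele. Neighbouring genes on such a stretch can carry the alleles of the stem cell strain in mutant animals and the alleles of the host strain in wild-type animals. A targeted allele can also alter the transcription of its neighbours directly. The comparison of KO with WT at both times asks whether the neighbours of Sirt2 differed between these mice.

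The targeted gene was read in every library first. Sirt2 stood at 70.5, 67.9 and 85.4 CPM in WT, where CPM are the reads of a gene scaled to the size of the library, and at 12.1, 9.04 and 16.2 CPM in KO at 0 h. At 24 h it stood at 62.3, 62.9 and 76.3 CPM in WT and at 9.52, 10.5 and 19.7 CPM in KO. All KO libraries lay below all WT libraries, with a log2 fold change of -2.60 (standard error, SE, 0.189) at 0 h and -2.39 (SE 0.196) at 24 h. Besides Sirt2, 5 neighbours were left out of the 32 by name, and 3 of these 5 passed the test between genotypes (edgeR quasi-likelihood test, Benjamini-Hochberg adjusted p below 0.05). Fbxo17, at position -5 in the order of protein-coding genes counted from Sirt2, had a log2 fold change of 2.44 at 0 h and 3.76 at 24 h (adjusted p = 4.78e-10 and 2.00e-15). Its neighbour Fbxo27 had 2.54 and 3.42 (adjusted p = 0.00936 and 0.000764). Zfp36 had -0.47 at 0 h (adjusted p = 0.00136) and -0.24 at 24 h (adjusted p = 0.451), while Nfkbib and Sars2 did not pass. The members were chosen with such results known. The counts, shares, medians and overlaps given for the members thus describe a list from which these genes had been removed. Set beside all genes, they do not measure the whole segment.

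Gene counts came to between 3.63 and 10.0 megareads per library. All 6 T cell markers examined were present in every group, with Cd4 at a mean of 1649.5 CPM in WT and 1679.9 CPM in KO at 0 h and 584 and 564 CPM at 24 h, and the 3 erythroid markers and the platelet marker Ppbp had no read. In unstimulated cells the summed level of the CD8 T cell markers (2 of 2 detected) was 17.3 to 18.5 CPM in WT and 30.8 to 35.8 CPM in KO. Nearly all of it was Cd8b1, which was called between genotypes at 0 h, with means of 17.4 and 31.5 CPM. Cd8a stood at 0.680 and 1.16 CPM. The NK cell markers summed to 25.1 to 27.5 CPM in WT and 28.1 to 42.4 CPM in KO. Of the B cell markers Cd22 was called, with means of 7.41 CPM in WT and 1.32 CPM in KO, while the summed level overlapped. The mast cell and basophil markers (2 of 2 detected) summed to 0.751 to 1.21 CPM in WT and 2.42 to 2.68 CPM in KO. The part of these cells in the differences below was not tested, and in bulk samples fewer cells of a type and less RNA per cell cannot be told apart.

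Levels among the 32 genes spanned from abundant to absent. They were divided by the union of all exons annotated for a gene in GENCODE M21, while the annotation behind the counts is unknown. The order below therefore depends on these lengths as well as on the reads. Per kb of exon, Hnrnpl was the highest in unstimulated WT cells, at 85.0 ± 4.18 CPM per kb (SD, n = 3). It encodes an RNA-binding splicing regulator known in T cells for the exon choice of the phosphatase gene Ptprc. Gmfg followed at 57.2 ± 2.43 CPM per kb. Its product acts in blood cells to prune branched actin networks. The libraries of these 2 genes did not overlap with each other or with the next gene in order. Supt5 (49.6 ± 1.20), Actn4 (44.3 ± 6.21), Rinl (43.0 ± 3.99) and Plekhg2 (40.8 ± 2.14 CPM per kb) came next, and within these 4 each gene overlapped with the one after it. Map4k1, a kinase that restrains T cell receptor signalling, stood apart from both neighbours in order at 34.9 ± 1.89 CPM per kb. The next 11 genes ran from Samd4b at 23.6 ± 2.61 down to Pak4 at 2.93 ± 0.487 CPM per kb. Neighbours in that order overlapped from Samd4b to Paf1, from Spint2 to Dyrk1b and between Fam98c and Sipa1l3, and Pak4 overlapped with none. All other genes of the 32 had means below 0.7 CPM per kb, Kcnk6 being the highest of them at 0.629 ± 0.161 CPM per kb. In all, the 32 genes took between 0.191% and 0.218% of the gene reads of a library, with 0.205% ± 0.00843 in WT and 0.211% ± 0.00705 in KO at 0 h and 0.196% ± 0.00203 and 0.195% ± 0.00330 at 24 h.

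**Figure D1:**
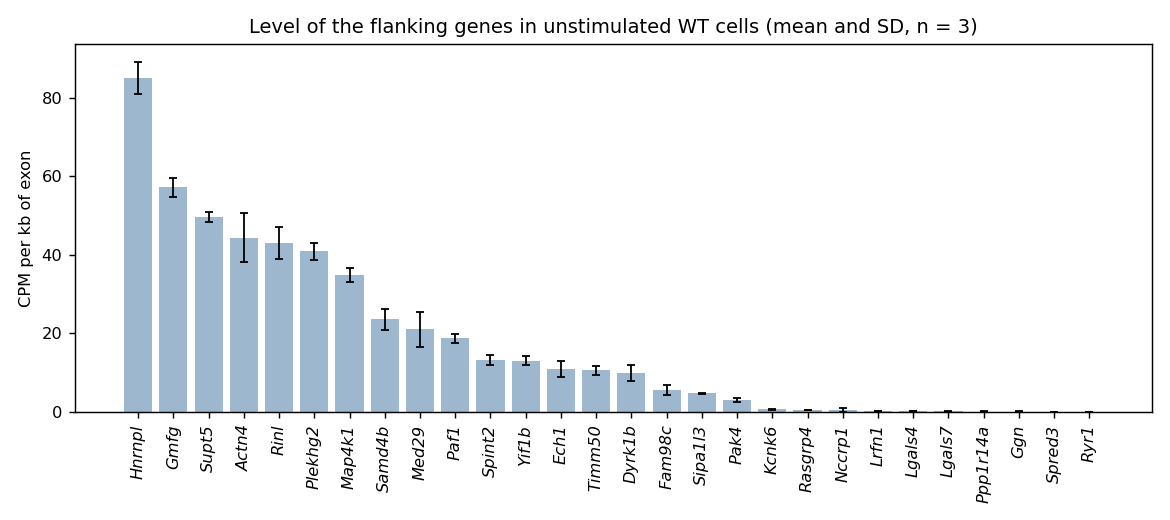
Level of the genes flanking Sirt2 in unstimulated WT cells, as CPM per kb of exon (bars, mean over 3 libraries; error bars, SD) for the members with at least 1 read there. Hnrnpl stands highest at 85.0 and Gmfg second at 57.2, and 10 genes on the right lie below 0.7.

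Promoter sequences of 4 genes are shown because these genes carry the main patterns described below. Rinl is the gene next to Sirt2 and had the smallest p of the neighbours for the averaged genotype difference, Rinl, Gmfg and Spint2 had lower levels at 24 h than at 0 h in both genotypes, and Timm50 had higher levels. Each window holds the 250 bases before the gene's start in RefSeq, build GRCm38.p6, read 5′ to 3′ on the gene's strand. Rinl starts on the plus strand after chr7:28788719-28788968 and Gmfg on the plus strand after chr7:28437219-28437468, the first of its 2 listed starts. Spint2 lies on the minus strand with its window at chr7:29281978-29282227, and Timm50 on the minus strand with its window at chr7:28312047-28312296. Capitals mark matches, on either strand, to 5 motifs: the E-box CACGTG, the CCAAT box, the GC box GGGCGG, the ETS core GGAAGT and the TATA box TATAAA. None of these motifs contains another.
Rinl: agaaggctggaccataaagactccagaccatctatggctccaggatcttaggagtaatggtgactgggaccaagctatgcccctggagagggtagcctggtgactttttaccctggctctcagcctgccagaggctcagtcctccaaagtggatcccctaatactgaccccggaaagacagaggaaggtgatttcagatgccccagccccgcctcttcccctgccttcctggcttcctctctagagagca
Gmfg: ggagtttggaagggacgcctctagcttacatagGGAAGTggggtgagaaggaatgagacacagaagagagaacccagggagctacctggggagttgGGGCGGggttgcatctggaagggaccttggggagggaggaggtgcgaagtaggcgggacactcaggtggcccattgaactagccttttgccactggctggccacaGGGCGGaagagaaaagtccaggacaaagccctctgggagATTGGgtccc
Spint2: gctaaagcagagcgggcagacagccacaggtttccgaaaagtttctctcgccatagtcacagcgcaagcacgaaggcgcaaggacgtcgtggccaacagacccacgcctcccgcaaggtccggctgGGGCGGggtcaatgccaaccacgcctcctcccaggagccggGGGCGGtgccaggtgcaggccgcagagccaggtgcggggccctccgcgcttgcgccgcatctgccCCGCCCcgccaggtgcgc
Timm50: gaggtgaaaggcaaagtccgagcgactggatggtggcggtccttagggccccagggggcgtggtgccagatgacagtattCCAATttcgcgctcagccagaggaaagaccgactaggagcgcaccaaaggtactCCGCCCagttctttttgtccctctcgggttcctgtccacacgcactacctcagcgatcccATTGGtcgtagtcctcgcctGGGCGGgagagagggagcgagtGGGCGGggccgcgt

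The Rinl window held none of the 5 motifs and 2 CpG dinucleotides, with a GC content of 55.6%. The Gmfg window shown held 1 CCAAT box, 2 GC boxes and 1 ETS core, with 5 CpG dinucleotides and a GC content of 58.8%. The window of the other listed start of Gmfg, chr7:28440687-28440936, held none of the 5 motifs and 1 CpG dinucleotide, with a GC content of 46.4%. The motifs given for Gmfg thus depend on the start chosen. The Spint2 window had 3 GC boxes, 24 CpG dinucleotides and a GC content of 69.6%, and the Timm50 window had 2 CCAAT boxes, 3 GC boxes, 19 CpG dinucleotides and a GC content of 62.0%. The 3 genes whose levels fell from 0 h to 24 h thus shared none of the 5 motifs, since Rinl had no match. Over all 32851 promoter windows of the same length, 33.8% held a CCAAT box, 32.7% a GC box, 19.7% the ETS core, 12.4% the TATA box and 6.02% the E-box. A match is a run of letters and not a site of binding.

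Between genotypes, 0 of the 22 tested neighbours passed at 0 h, at 24 h or for the average of both times (edgeR). Over all 10981 genes tested, the shares that passed were 0.346% at 0 h, 0.273% at 24 h and 0.592% for the average, so that a list of 22 would hold well under 1 such gene at these rates. DESeq2 also called 0 of the 22 in each comparison. At an unadjusted p below 0.05, 4 neighbours stood at 0 h (Lrfn1, Rinl, Fam98c and Med29), 1 at 24 h (Rinl) and 3 for the average (Rinl, Fam98c and Med29). The matching shares of all genes were 8% at 0 h, 7.06% at 24 h and 9.75% for the average, against 18.2%, 4.55% and 13.6% of the neighbours. The median log2 fold change of the neighbours was 0.011 at 0 h, -0.071 at 24 h and -0.027 for the average, beside 0.0038, -0.0095 and -0.0047 over all genes. Their median absolute log2 fold change was 0.073, 0.10 and 0.067, beside 0.13, 0.13 and 0.10 over all genes. Their median SE was smaller too, at 0.136, 0.144 and 0.099, beside 0.172, 0.177 and 0.124 over all genes. These absolute values were therefore not measured with like precision.

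The precision of these values differed between the genes. The 95% interval of the fold change lay within 1.5-fold in both directions for 15 of 22 neighbours at 0 h, 15 at 24 h and 17 for the average. Over all genes tested this held for 58.6%, 58.4% and 72.5%. For the average, the 5 neighbours with wider intervals were Lgals4, Rasgrp4, Kcnk6 and Lrfn1, which had the fewest reads among those tested, and Fam98c. For these 5 the data leave room for a difference beyond 1.5-fold. Libraries of KO and WT did not overlap for Gmfg and Lrfn1 at 0 h and for Rinl and Plekhg2 at 24 h, all higher in KO, against 12.4% of all genes at 0 h and 12.9% at 24 h. None of the 22 was apart at both times in the same direction, against 1.39% of all genes. Fbxo17, Fbxo27 and Zfp36 had been removed from the list before these shares and the medians above were taken.

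**Figure D2:**
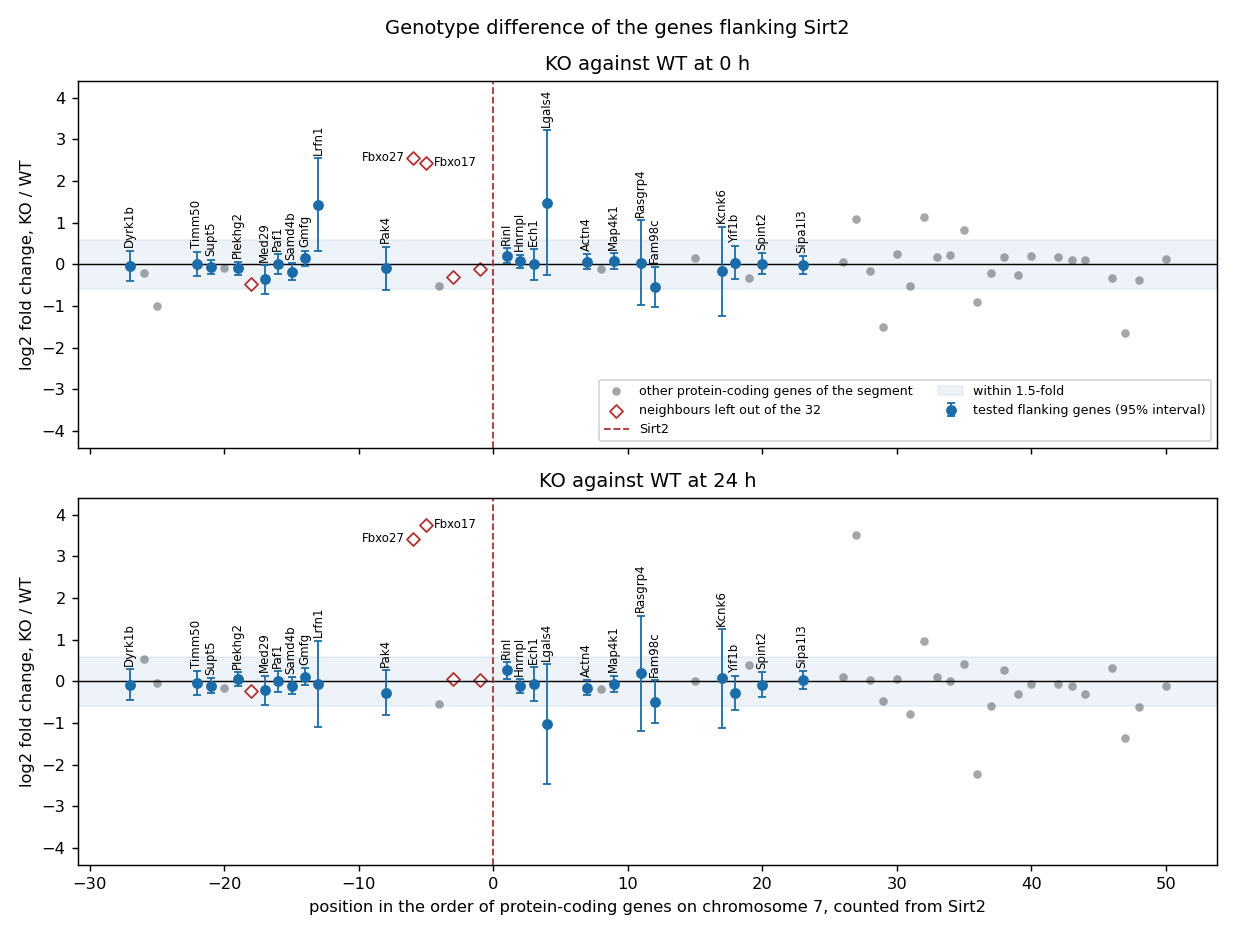
Log2 fold change of KO against WT at 0 h (top) and 24 h (bottom) against the position of each gene in the order of protein-coding genes on chromosome 7 (Sirt2 at 0). Blue points with 95% intervals are the 22 tested neighbours, grey points the other tested protein-coding genes of the segment and open diamonds the 5 neighbours left out of the 32. The shaded band marks 1.5-fold, Lrfn1 and Lgals4 have the longest intervals at 0 h, and Fbxo17 and Fbxo27 lie far above the neighbours on both sides of them.

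By side of Sirt2, the 12 tested neighbours on the distal side, away from the centromere, had a median log2 fold change of 0.044 at 0 h and -0.071 at 24 h, and the 10 on the proximal side had -0.045 and -0.067. For the average, the median absolute log2 fold change was 0.10 on the proximal and 0.046 on the distal side. By distance, the 10 nearest to Sirt2 in gene order had a median absolute log2 fold change of 0.15 for the average, and the other 12 had 0.050. The nearest 10 include 4 of the 5 genes with wide intervals (Lgals4, Rasgrp4, Fam98c and Lrfn1), and neither the sides nor nearer and farther genes were tested against each other.

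The signalling genes, with Fam98c listed among them, held 9 members, 8 of them tested, and none passed between genotypes. Their averaged log2 fold changes ran from -0.51 (Fam98c) to 0.24 (Rinl). Rinl, the first gene on the distal side, encodes an exchange factor for Rab GTPases of early endosomes. It stood at 152, 144 and 172 CPM in WT and at 189, 183 and 169 CPM in KO at 0 h. At 24 h it stood at 67.7, 67.5 and 79.1 CPM in WT and at 83.8, 86.7 and 86.8 CPM in KO. At 0 h the highest WT library lay above the lowest KO library, and at 24 h all KO libraries lay above all WT libraries. The log2 fold change was 0.21 (SE 0.0926, adjusted p = 0.551) at 0 h, 0.26 (SE 0.100, adjusted p = 0.529) at 24 h and 0.24 (95% interval 0.099 to 0.37, adjusted p = 0.113) for the average. Under 1 alternative, scaling by library totals alone, the averaged difference passed at an adjusted p of 0.041, and over all 18 alternatives this p ran from 0.041 to 0.275.

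Fam98c stood at 16.5, 11.4 and 17.4 CPM in WT and at 8.90, 12.3 and 10.2 CPM in KO at 0 h. At 24 h it stood at 12.9, 9.19 and 13.1 CPM in WT and at 7.32, 10.7 and 6.72 CPM in KO. At each time replicate 2 of WT lay below the highest KO library, which was also replicate 2, and the other libraries were apart. The log2 fold change was -0.54 (SE 0.239) at 0 h, -0.48 (SE 0.256) at 24 h and -0.51 (SE 0.175, adjusted p = 0.221) for the average. Its exons overlap those of Rasgrp4 on the opposite strand over 978 bases and those of 1110035H17Rik over 555 bases, and without a stated strand setting reads there cannot be assigned with certainty.

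Pak4, a kinase that acts downstream of Cdc42, was the nearest tested member on the proximal side. It stood at 11.8, 8.45 and 10.9 CPM in WT and at 8.47, 8.55 and 12.4 CPM in KO at 0 h. In the 24 h cells it was at 10.0, 12.3 and 7.81 CPM in WT and at 6.59, 9.61 and 8.96 CPM in KO. The groups overlapped at both times, and the averaged log2 fold change was -0.18 (SE 0.185, adjusted p = 0.813). Exons of Pak4 and Samd4b share 39 bases on the same strand in the annotation. Map4k1 and Sipa1l3, a member of a family of activators of the GTPase activity of Rap proteins, had averaged log2 fold changes of 0.013 (95% interval -0.12 to 0.15) and 0.0062 (-0.15 to 0.16). Plekhg2 had -0.024 (-0.14 to 0.094), and Dyrk1b, a kinase, had -0.054 (-0.31 to 0.20). The 4 intervals all lay within 1.5-fold. Rasgrp4, a Ras activator known from mast cells, had 0.12 with an interval from -0.74 to 0.98.

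Among the genes of transcription and RNA processing, 5 of 6 were tested and none passed, with averaged log2 fold changes from -0.28 (Med29) to 0.0041 (Paf1). Hnrnpl stood at 479, 512 and 528 CPM in WT and at 524, 541 and 531 CPM in KO at 0 h. After 24 h the level was at 484, 468 and 510 CPM in WT and at 420, 489 and 448 CPM in KO. The groups overlapped at both times, and the log2 fold change was 0.071 at 0 h, -0.11 at 24 h and -0.018 (95% interval -0.13 to 0.098) for the average. Med29, a subunit of the Mediator complex, stood at 32.9, 21.5 and 26.2 CPM in WT and at 19.7, 21.1 and 21.8 CPM in KO at 0 h. The 24 h levels lay at 22.1, 28.8 and 25.3 CPM in WT and at 21.6, 23.6 and 20.9 CPM in KO. The lowest WT library lay within the range of KO at both times, and the averaged log2 fold change was -0.28 (SE 0.121, adjusted p = 0.394). Samd4b, an RNA-binding repressor of translation, stood at 96.0, 117 and 117 CPM in WT and at 93.3, 98.6 and 102 CPM in KO at 0 h. At 24 h the values lay at 101, 108 and 110 CPM in WT and at 96.3, 96.8 and 104 CPM in KO. The groups overlapped through 1 WT library at each time, and the averaged log2 fold change was -0.14 (SE 0.0694, adjusted p = 0.525). The elongation factors Paf1 and Supt5 had averaged log2 fold changes of 0.0041 (95% interval -0.17 to 0.18) and -0.080 (-0.20 to 0.042).

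The cytoskeletal genes held 4 members, of which Gmfg and Actn4 were tested and did not pass. Gmfg stood at 169, 157 and 157 CPM in WT and at 190, 171 and 172 CPM in KO at 0 h. In the 24 h cells it was at 79.8, 76.7 and 77.6 CPM in WT and at 78.2, 98.9 and 75.6 CPM in KO. All KO libraries lay above all WT libraries at 0 h, and at 24 h 1 KO library lay high and the other 2 within or below the range of WT. The log2 fold change was 0.14 (SE 0.0941, adjusted p = 0.761) at 0 h, 0.12 (SE 0.102) at 24 h and 0.13 (95% interval -0.010 to 0.27) for the average. Actn4, which crosslinks actin filaments, had -0.045 (-0.17 to 0.083) for the average.

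The genes of mitochondria and transport were all 3 tested and none passed. Ech1, an isomerase of fatty acid oxidation in mitochondria and peroxisomes, stood at 30.3, 22.6 and 21.7 CPM in WT and at 25.8, 22.8 and 25.4 CPM in KO at 0 h. After 24 h the level was at 11.9, 17.5 and 13.0 CPM in WT and at 13.9, 15.4 and 11.2 CPM in KO. The groups overlapped at both times, and the averaged log2 fold change was -0.035 (95% interval -0.31 to 0.24). Timm50, a subunit of the translocase that imports proteins across the mitochondrial inner membrane, stood at 24.9, 30.1 and 29.9 CPM in WT and at 30.03, 29.0 and 26.7 CPM in KO at 0 h. The 24 h levels lay at 38.8, 42.3 and 40.9 CPM in WT and at 32.8, 42.3 and 44.5 CPM in KO. These groups overlapped at both times too, with an averaged log2 fold change of -0.010 (-0.22 to 0.20). Yif1b, a protein of transport between endoplasmic reticulum and Golgi, had -0.12 (-0.40 to 0.16).

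Of the 8 surface, channel and secreted genes, 4 were tested and none passed. Lrfn1, a leucine-rich adhesion protein known from synapses, had the largest averaged log2 fold change of the 22. It stood at 1.04, 0.831 and 1.13 CPM in WT and at 3.00, 1.45 and 3.77 CPM in KO at 0 h, from 21 reads in WT and 57 in KO. At 24 h the values lay at 2.21, 2.87 and 2.79 CPM in WT and at 2.01, 2.27 and 3.48 CPM in KO. All KO libraries lay above all WT libraries at 0 h, and the groups overlapped at 24 h. The log2 fold change was 1.43 (SE 0.552, adjusted p = 0.443) at 0 h, -0.055 (SE 0.514) at 24 h and 0.69 (95% interval -0.073 to 1.45, adjusted p = 0.576) for the average.

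Lgals4, a galectin best known from gut epithelium, stood at 0.346, 0.277 and 0.501 CPM in WT and at 1.07, 1.78 and 0.377 CPM in KO at 0 h. In the 24 h cells it was at 5.22, 0.804 and 1.81 CPM in WT and at 1.65, 1.57 and 0.249 CPM in KO. The groups overlapped at both times, 1 WT library at 24 h stood far above the rest, and the whole gene had 96 reads in 12 libraries. The log2 fold change was 1.48 (SE 0.864) at 0 h, -1.02 (SE 0.712) at 24 h and 0.23 (95% interval -0.86 to 1.32) for the average, whereas the mean CPM over both times was lower in KO. Without replicate 1 of WT 24 h the 24 h value was -0.095 and the average 0.69, and without replicate 3 of KO 24 h the 24 h value was -0.62. Spint2, a membrane-bound inhibitor of serine proteases, stood at 56.6, 56.5 and 67.0 CPM in WT and at 60.5, 66.3 and 55.5 CPM in KO at 0 h. After 24 h the level was at 26.3, 23.4 and 29.6 CPM in WT and at 25.1, 27.1 and 22.6 CPM in KO. These groups overlapped at both times, and the averaged log2 fold change was -0.029 (-0.22 to 0.16). Kcnk6, a potassium channel, had -0.046 (-0.84 to 0.75).

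**Figure D3:**
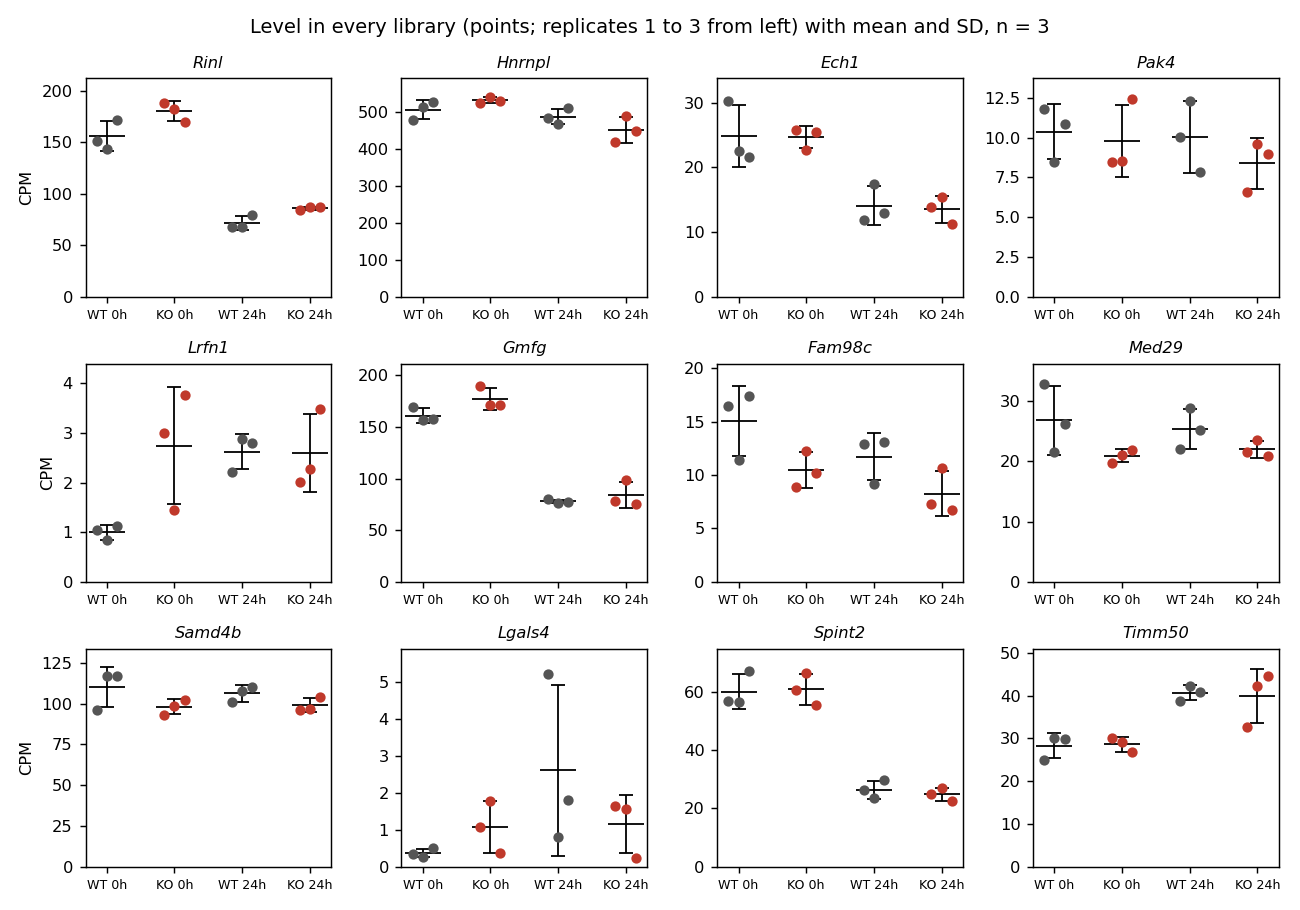
Level in CPM (vertical axes, from 0) of 12 neighbours of Sirt2 in every library, with WT in grey and KO in red. Points are replicates 1 to 3 from left, and bars are mean and SD (n = 3). The genotypes overlap in most panels, all KO points of Rinl lie above WT at 24 h, those of Gmfg and Lrfn1 lie above WT at 0 h, and Rinl, Gmfg, Spint2 and Ech1 drop from 0 h to 24 h in both.

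**Figure D4:**
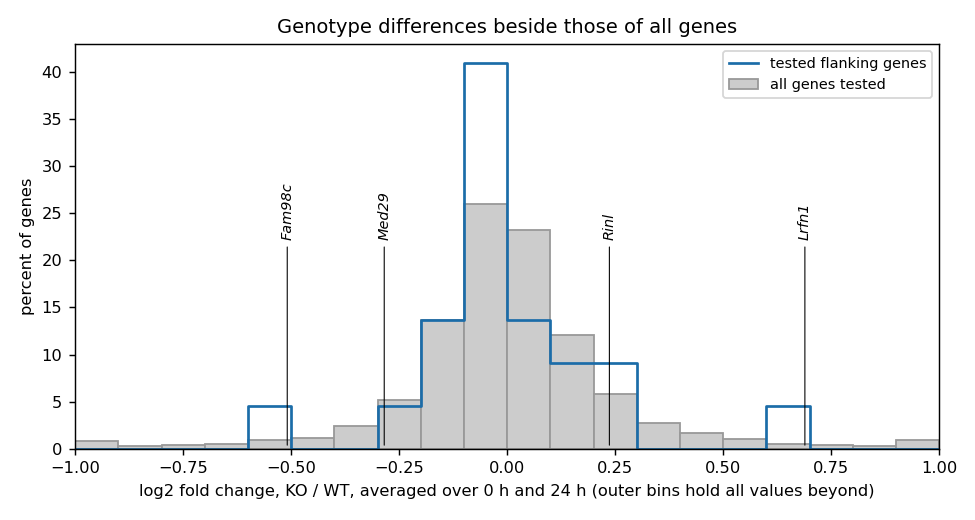
Share of genes (percent, vertical axis) in bins of the averaged log2 fold change of KO against WT (horizontal axis), for the 22 tested neighbours (blue line) and all 10981 genes tested (grey bars). The neighbours centre near -0.027 and all genes near -0.0047, and Fam98c, Med29, Rinl and Lrfn1 are marked.

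More of these genes were called between the times than between the genotypes. The cells at 24 h had been both cultured and given anti-CD3, and none of the 4 groups was cultured without it, so culture and stimulation cannot be told apart. From 0 h to 24 h in WT, 3 of the 22 rose and 7 fell, beside 20.2% of all genes that rose and 20.5% that fell. In KO 1 of the 22 rose and 8 fell, beside 19.4% and 21% of all genes. In both directions together the called share was 45.5% of the neighbours and 40.7% of all genes in WT, and 40.9% and 40.4% in KO, which is near the background. The genes that fell in both genotypes were Rinl, Spint2, Gmfg, Rasgrp4, Ech1, Plekhg2 and Supt5, and Timm50 rose in both. Where library totals alone set the scale, all genes shifted upward over time by a median log2 of 0.203 in WT and 0.242 in KO. The split of all genes then went from 2217 higher and 2253 lower to 3580 and 1468 in WT, and from 2129 and 2306 to 3709 and 1402 in KO. On that scale 5 of the 22 rose and 6 fell in WT, and 3 rose and 5 fell in KO.

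Rinl fell by 1.13 on the log2 scale in WT (SE 0.0968, adjusted p = 1.87e-13) and by 1.07 in KO (SE 0.0971, adjusted p = 9.07e-13). Spint2 fell by 1.19 in WT (SE 0.133) and by 1.28 in KO (SE 0.138), and Gmfg fell by 1.05 in WT (SE 0.0979) and by 1.07 in KO (SE 0.0988). The libraries of these 3 genes at 24 h lay below every library at 0 h of the same genotype, as the values given above show. Ech1 fell by 0.79 in WT and by 0.86 in KO, and Plekhg2 fell by 0.72 in WT and by 0.57 in KO. Supt5, which joins RNA polymerase during elongation, fell by 0.32 in WT and by 0.36 in KO, and both calls were lost when library totals alone set the scale (adjusted p = 0.249 and 0.257). Hnrnpl fell by 0.23 in KO (adjusted p = 0.0196) and had -0.055 in WT. The KO call of Hnrnpl was lost in 7 of 18 alternatives, with an adjusted p from 0.0571 to 0.952 in these. They were the fits without replicate 1, 2 or 3 of KO 0 h or replicate 1 or 3 of KO 24 h, the fit with no filter, and library totals alone, where its log2 fold change was 0.0073.

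Rasgrp4 stood at 2.43, 3.05 and 3.00 CPM in WT and at 3.11, 3.71 and 1.88 CPM in KO at 0 h. The 24 h levels lay at 0.402, 0.689 and 1.40 CPM in WT and at 1.46, 0.699 and 0.746 CPM in KO. In each genotype all libraries at 24 h lay below all libraries at 0 h. It fell by 1.71 in WT (SE 0.583, adjusted p = 0.0158) and by 1.56 in KO (SE 0.601, adjusted p = 0.0345). The WT call was lost without replicate 3 of WT 0 h (adjusted p = 0.0502) or replicate 1 or 2 of WT 24 h (0.0741 and 0.0727). The KO call was lost without replicate 1 or 2 of KO 0 h (0.0855 and 0.123), without replicate 2 or 3 of KO 24 h (0.135 and 0.109), with no filter (0.0600) and with library totals alone (0.0700). The mast cell and basophil markers beside it summed to 1.26 to 1.61 CPM in WT and 0.915 to 2.49 CPM in KO at 24 h.

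Timm50 rose by a log2 fold change of 0.52 in WT (SE 0.143, adjusted p = 0.00286) and 0.47 in KO (SE 0.146, adjusted p = 0.00850). All libraries at 24 h lay above all libraries at 0 h in both genotypes, and the KO call was lost without replicate 3 of KO 24 h (log2 0.39, adjusted p = 0.0616). Lgals4 rose in WT with a log2 fold change of 2.64 (SE 0.803, adjusted p = 0.00676), and that call rested on replicate 1 of WT 24 h, without which it was 1.72 (adjusted p = 0.148). Lrfn1 rose in WT with a log2 fold change of 1.39 (SE 0.553, adjusted p = 0.0404). That call held in 8 of 17 alternatives and was lost without any 1 of the 6 WT libraries, without replicate 2 or 3 of KO 24 h and with no filter, where the adjusted p ran from 0.0510 to 0.107. In KO, Lgals4 had a log2 fold change of 0.15 (adjusted p = 0.901) and Lrfn1 of -0.10 (adjusted p = 0.899).

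The difference between genotypes in the change from 0 h to 24 h was tested itself, and 0 of the 22 passed, beside 0.00911% of all genes. At an unadjusted p below 0.05 stood 1 of the 22 (4.55%), Lgals4, beside 5.24% of all genes, which is near the background. DESeq2 called 0 of the 22 as well. The interaction of Lgals4 was -2.49 on the log2 scale (SE 1.12, adjusted p = 0.929), or -1.575 without replicate 1 of WT 24 h, and that of Lrfn1 was -1.49 (SE 0.755, adjusted p = 0.9498). For Rinl, Spint2 and Gmfg the interaction was 0.051, -0.091 and -0.025, with 95% intervals from -0.22 to 0.33, from -0.48 to 0.30 and from -0.30 to 0.25. Cell type markers and library composition also differed between the times, and their part in these changes was not tested. The T cell markers (6 of 6 detected) summed to 5210 to 5725 CPM at 0 h and 2442 to 2663 CPM at 24 h in WT, and to 5456 to 6274 and 2344 to 2744 CPM in KO. The ribosomal RNA precursor Rn45s took 12.5% to 17.5% of gene reads in the 0 h libraries and 7.95% to 9.55% in the 24 h libraries, with no overlap. The summed level of the B cell markers (5 of 5 detected) was 21.0 to 29.2 CPM at 0 h and 4.13 to 6.03 CPM at 24 h in WT, and 16.1 to 26.9 and 2.93 to 7.22 CPM in KO. That of the NK cell markers (3 of 3 detected) was 25.1 to 27.5 and 2.61 to 5.40 CPM in WT, and 28.1 to 42.4 and 3.29 to 5.97 CPM in KO.

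**Figure D5:**
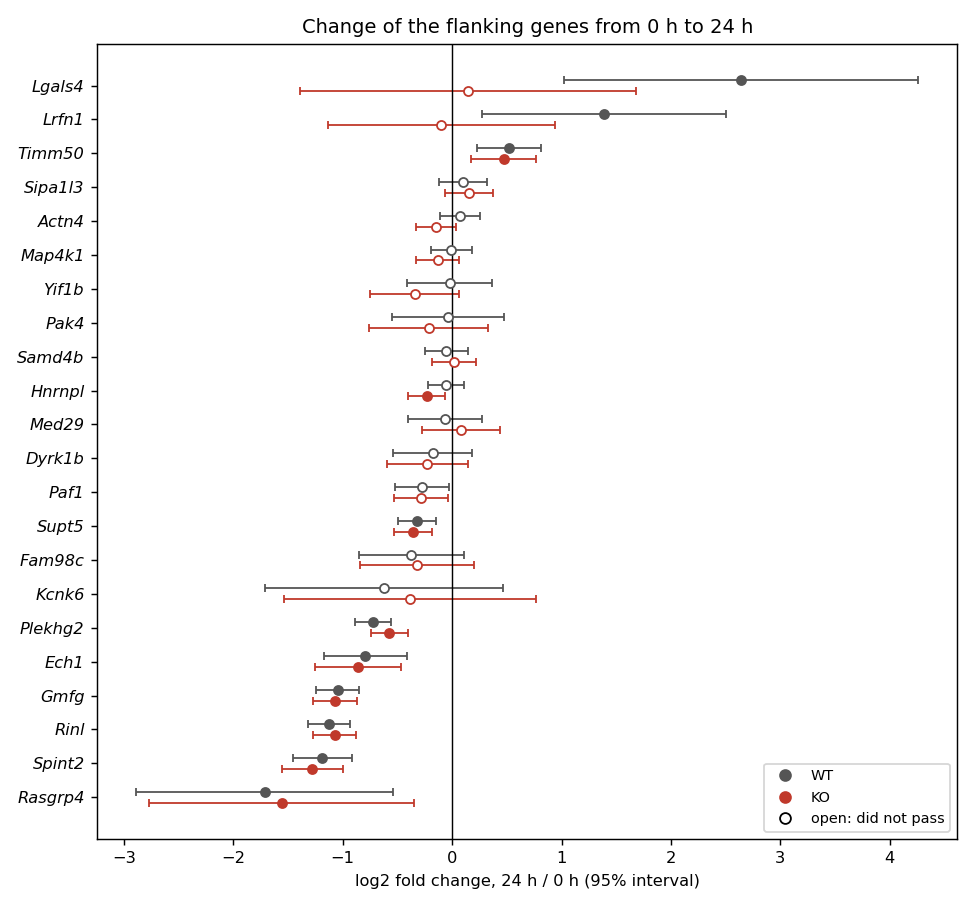
Log2 fold change from 0 h to 24 h (horizontal axis, with 95% intervals) of the 22 tested neighbours in WT (grey) and KO (red). Filled points passed at an adjusted p below 0.05 and open points did not. Timm50 rose and Supt5, Plekhg2, Ech1, Gmfg, Rinl, Spint2 and Rasgrp4 fell in both genotypes. Fam98c and Kcnk6, which lie among these in the order, passed in neither. Filled and open points differ between genotypes for Lgals4, Lrfn1 and Hnrnpl.

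The other 10 neighbours had too few reads to be tested. Lrfn3, the farthest of the 32 at position 51, had no read in any library, and 0 reads over a group allow up to 0.143 to 0.197 CPM (3 counts over a group, for counting error only). Capn12, a calpain known from hair follicles, Dll3, a ligand of the Notch family, Ggn, known from testis, Dpf1, a subunit of chromatin remodelling complexes in neurons, and Ppp1r14a, an inhibitor of myosin phosphatase, had between 1 and 7 reads in all 12 libraries. Nccrp1 had 0, 4 and 11 reads in WT and 2, 1 and 0 in KO at 0 h, and 1 and 0 reads in the groups at 24 h. Lgals7, a galectin of stratified epithelium, had 1, 0 and 2 reads in WT and 7, 3 and 2 in KO at 0 h, and 12 and 4 reads at 24 h. Ryr1, the calcium release channel of skeletal muscle, had 0, 4 and 7 reads in WT and 25, 6 and 4 in KO at 0 h, and 1, 2 and 8 against 0, 1 and 0 at 24 h. Ryr1 thus kept no side: its summed reads were highest in KO at 0 h, where the genotypes overlapped, and lowest in KO at 24 h. There all KO libraries lay below WT in CPM, but only through library size. Replicate 2 of KO and replicate 1 of WT had 1 read each (0.175 and 0.201 CPM).

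Spred3, an inhibitor of the Ras and MAP kinase pathway, was the 1 low neighbour with no overlap between genotypes at both times in the same direction. It had 1, 0 and 2 reads in WT and 4, 6 and 5 in KO at 0 h, and 5, 4 and 4 in WT and 7, 15 and 6 in KO at 24 h. As levels these were 0.173, 0 and 0.250 CPM against 0.429, 0.968 and 0.941 CPM at 0 h, and 1.00, 0.459 and 0.558 CPM against 1.28, 2.62 and 1.49 CPM at 24 h. Every KO library lay above every WT library of its time. Of the 1743 genes below the filter with at least 15 reads in all, 0.459% did so at both times in 1 direction, and 4 of the 10 low neighbours (Lgals7, Ryr1, Spred3 and Nccrp1) had that many reads. In a fit with no filter over 15503 genes, the averaged log2 fold change of Spred3 was 1.86 (SE 0.762, edgeR unadjusted p = 0.0149, adjusted p = 0.371). Its exons overlap those of Ggn on the opposite strand over 202 bases.

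The neighbours were set beside the other genes of the same segment. Of these, 8 tested genes lie among the members between Dyrk1b and Sipa1l3, and 1 of the 8, Gm19897, passed in all 3 genotype comparisons. Gm19897 is a noncoding RNA within the span of Sirt2 in RefSeq, with 6.11 ± 2.51 CPM in WT against 0.322 ± 0.557 CPM in KO at 0 h, and 4.48 ± 0.886 CPM in WT with no read in KO at 24 h. Of the 23 tested genes between Sipa1l3 and Lrfn3, 0 passed at 0 h and 1, the zinc finger gene Zfp82, passed at 24 h (log2 -2.22, adjusted p = 0.0175) and for the average (-1.56, adjusted p = 0.00660). Over the 774 tested genes on the rest of chromosome 7, 1.29% passed at 0 h, 1.03% at 24 h and 1.42% for the average. These shares were above those of all 10981 genes tested, at 0.346%, 0.273% and 0.592%. The median absolute averaged log2 fold change was 0.067 in the 22 neighbours, 0.16 in the 8 genes among them, 0.22 in the 23 beyond and 0.10 on the rest of the chromosome, and the median SE was 0.099, 0.25, 0.19 and 0.13. The 22 had the smallest median SE of these lists, and the lists were not tested against each other.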

How the data were processed

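The deposited tables held read counts per gene symbol, 1 file per library. The authors aligned reads with STAR 2.6.0c and used DESeq, per the submitters' processing notes, which name the build hg19. Since hg19 is human and the symbols are murine, the build used for counting is uncertain. The counting program, its annotation and the use of strand were not given in the sources used here. Total RNA libraries with probe-based reduction of ribosomal RNA were made, per the labels' protocols. Rn45s still took 12.5% to 17.5% of gene reads at 0 h and 7.95% to 9.55% at 24 h. Library sizes and tests exclude 5 closing entries that name no gene. These took 22.8% to 35.4% of the listed reads for no feature, 0.412% to 0.576% for ambiguous and 25.7% to 30.9% for reads placed at several sites (28.7% to 30.9% at 0 h, 25.7% to 27.7% at 24 h).

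Counts were analysed with edgeR 4.0.16 (R 4.3.3): filterByExpr (minimum count 10, total 15), TMM factors, and the robust quasi-likelihood test in 1 fit of the 4 groups (biological coefficient of variation 0.115). There were 6 comparisons, each adjusted by Benjamini-Hochberg over 10981 genes at a threshold of 0.05. CPM values use library sizes and TMM factors. SE was calculated from the fit, as the absolute log2 fold change divided by the square root of the F statistic of the test. The 95% intervals are that SE times a t quantile around the log2 fold change. Replicates differed by a chi-square of 3.23 to 15.5 per gene, so none were counted as the same library. The code was tested on simulated counts.

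Chromosome and gene order came from RefSeq GRCm38.p6, which matched 21689 symbols, plus 1623 through synonyms, and left 167 unmatched. All 32 members matched directly. Exon lengths and overlaps came from GENCODE M21. Promoter entries existed for 28 of the 32. The members, the lists and the roles were chosen with earlier results of these data known. Genes given with every library were the 3 tested members nearest to Sirt2 on each side, the 4 with the largest averaged genotype difference in each direction, and up to 4 with the largest passing change in each direction over time in WT. The myeloid, plasmacytoid dendritic cell and platelet markers were summed too. Summed levels were 66.5 to 87.6 CPM at 0 h and 41.6 to 62.9 CPM at 24 h for 7 detected myeloid markers (Adgre1 was not analysed here), at most 0.995 CPM for Siglech and at most 0.402 CPM for the platelet markers. Alternatives were DESeq2 1.42.0, other scaling and filters, the libraries of 1 time alone, a replicate block and leaving out each library.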

Additional observations from a re-analysis of the deposited data

How the results depend on the processing

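Counts of neighbours called between genotypes were 0 in all 19 alternatives at 0 h and at 24 h, and 0 in 17 of 18 for the average. The number of neighbours tested differed between alternatives. It was 31 with no filter, 18 with minimum count 30, and 22 or 23 without 1 library. With the libraries of 1 time alone it was 20 at 0 h and 19 at 24 h. With library totals alone the averaged count was 1 (Rinl, log2 0.27, adjusted p = 0.041). Leaving out 1 library at a time gave 0 calls in each of the 3 genotype comparisons. Over time the count ranged from 7 to 11 in WT and from 6 to 9 in KO. Over all genes these counts ranged from 3863 to 5048 in WT and from 3697 to 5111 in KO. For the interaction the count was 0 throughout, beside 0 to 3 over all genes. Between genotypes, counts over all genes moved more: 17 to 59 at 0 h (38 as reported), 14 to 48 at 24 h (30) and 42 to 112 for the average (65). The uncalled fold changes between genotypes changed sign in at least 1 alternative for 12 of 22 neighbours at 0 h, 11 at 24 h and 13 for the average. Among those that kept it for the average, Rinl ranged from 0.21 to 0.28 and Fam98c from -0.63 to -0.44. The fit with minimum count 30 did not hold Lgals4, Lrfn1, Rasgrp4 or Kcnk6. The main fit did not pair libraries by replicate number. Over all pairs of groups, same-numbered libraries had correlations of their deviations from -0.088 to 0.093. Between WT 0 h and WT 24 h each library correlated best with its own number. Between KO 0 h and KO 24 h replicates 1 and 3 did so and replicate 2 did not. This is a hint from the data only. The replicate block used the same numbers across both genotypes, and pairing within a genotype was not fitted. With the replicate block, 0, 0 and 0 neighbours were called between genotypes, beside 32, 28 and 63 of all genes. That fit called 10 neighbours over time in WT, 9 in KO and 0 for the interaction. Of all genes in that fit, 2190 rose and 2238 fell in WT, and 2123 rose and 2276 fell in KO. Depth limited Lgals4, Lrfn1, Rasgrp4, Kcnk6 and the 10 untested neighbours most.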

Other observations

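The stretch beyond Sipa1l3, up to Lrfn3, is rich in zinc finger genes of the Zfp family, whose products bind DNA. At an unadjusted p below 0.05 (edgeR), 10 of its 23 tested genes stood for the averaged difference of KO and WT, or 43.5%, beside 13.6% of the 22 neighbours and 9.75% of all genes tested. The share was 37.5% (3 of 8) in the other tested genes between Dyrk1b and Sipa1l3, so it was not high in this stretch alone. On the rest of chromosome 7 it was 12.8%. The 10 genes of the stretch went both ways. Zfp82 had a log2 fold change of -1.56 (SE 0.328, adjusted p = 0.00660), with 6.10 ± 0.993 CPM in WT and 1.28 ± 0.408 CPM in KO at 24 h (n = 3), and passed in 17 of 18 alternatives, the exception being the fit without replicate 3 of WT 0 h (adjusted p = 0.0518). The other 9 did not pass after adjustment. Clip3 (-1.51), Zfp940 (-0.99), Zfp27 (-0.66) and Alkbh6 (-0.50) had lower values in KO, and Zfp30 (2.29), Zfp383 (1.06), Zfp14 (0.63), Gm5113 (0.59) and Zfp260 (0.22) had higher ones. Zfp genes have related sequences, so counts of uniquely placed reads are uncertain there. This count was singled out after the values were seen.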
